A study of Mus musculus with 60 samples.

Results

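The autosomal sequence examined here is the part of the mouse genome that lay inside a lamin B1 domain in both genotypes of the study, where the wild-type (WT) domain was shorter than 15 Mb. Chromosomes were divided into bins of 37 kb, the grid on which the domain bounds lie, and a bin was taken when it lay whole inside a domain of both lists. This gave 12784 of 66831 autosomal bins, 473 Mb of sequence or 19.8% of the sequenced autosomes. The bins were thus chosen by the measured lamin B1 signal, through the domains called from it and their length in WT, so their extent is a description and has no test. Genes were placed by their annotated start on build NCBIM37.

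The lists come from lamin B1 ChIP-seq, with input, of hippocampus from WT mice and from R6/1 mice, both 30 weeks old and on a mixed CBA and C57BL/6 background. The R6/1 line is a Huntington's disease model in which a transgene adds exon 1 of human huntingtin with an expanded CAG repeat; WT mice lack it. Each genotype had 3 biological replicates, each a pool of 5 mice run in 3 lanes, but 1 list of domains, so the domains have no replicate spread. RNA-seq of the same tissue and age had 9 WT and 9 R6/1 libraries, with between 12299433 and 16736544 reads on genes recovered per library. Levels are RPKM, reads per kilobase of transcript scaled for depth. Nothing in the labels ties an RNA library to 1 named animal, so p-values measure the spread between libraries.

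Lamin B1 is a protein of the nuclear lamina, the meshwork under the inner nuclear membrane, and the long stretches of chromatin that touch it are called lamina-associated domains. Such domains are known for low gene density, low guanine and cytosine (GC) content and little transcription, and many clustered gene families used in 1 cell type only, such as odorant receptors, lie in them. Genes that are active inside them are fewer, and a start rich in CpG dinucleotides is a common property of broadly used promoters.

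As groups, active and silent genes of these domains differed in the bases before their starts, though single genes departed from this. The 200 bases upstream of 3 genes are shown 5′ to 3′ in the direction of transcription, with each CpG in capitals: a highly expressed gene with a CpG-rich start, a highly expressed neuronal gene without one, and an olfactory receptor gene listed at 0 in all 18 libraries. Bases come from NCBIM37 at chr11:17059066-17059265 (plus strand, Ppp3r1), chr13:25362372-25362571 (minus strand, Nrsn1) and chr7:110005786-110005985 (minus strand, Olfr566), and none of these windows overlaps an annotated exon.
Ppp3r1: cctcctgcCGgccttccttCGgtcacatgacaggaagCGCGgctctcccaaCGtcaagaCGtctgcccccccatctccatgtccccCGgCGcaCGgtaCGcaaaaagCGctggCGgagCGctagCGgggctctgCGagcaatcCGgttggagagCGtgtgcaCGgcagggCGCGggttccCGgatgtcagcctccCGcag
Nrsn1: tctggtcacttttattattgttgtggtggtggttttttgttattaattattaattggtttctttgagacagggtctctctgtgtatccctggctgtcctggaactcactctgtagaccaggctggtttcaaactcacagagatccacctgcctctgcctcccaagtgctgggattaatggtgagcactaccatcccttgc
Olfr566: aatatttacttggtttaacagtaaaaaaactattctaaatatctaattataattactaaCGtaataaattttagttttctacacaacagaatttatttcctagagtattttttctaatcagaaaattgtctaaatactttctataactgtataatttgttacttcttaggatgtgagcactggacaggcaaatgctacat

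The window of Ppp3r1, which encodes the regulatory subunit B of the phosphatase calcineurin, holds 22 CpG, that of Nrsn1, a vesicular protein of neurites, 0 and that of Olfr566 1. Over the 187 protein-coding genes of these bins that reached 10 RPKM on average, the median was 11 CpG in these 200 bases, and 5 genes (2.67%) had none. Over the 1604 protein-coding genes of these bins averaging under 0.5 RPKM, called silent here, the median was 1, and 769 (47.9%) had none. Olfactory and vomeronasal receptor genes gave 801 and 135 of these 1604. Of the 938 such receptor genes measured, 537 (57.2%) had none, and the silent genes were not counted without them. Starts are those of the annotation and were not checked against measured starts. A start was called CpG-island-like when the 1 kb around it (500 bases on each side) had a GC content of at least 50% and a CpG count of at least 0.6 of that expected from its C and G. This held for 124 of the 187 expressed genes (66.3%), for 27 of the 1604 silent ones (1.68%) and for 45.1% of all autosomal protein-coding genes. Outside all domains the shares were 77.2% of expressed and 14.5% of silent protein-coding genes. The plot of CpG content against level shows the receptor genes at the low end of both scales.

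**Figure D1:**
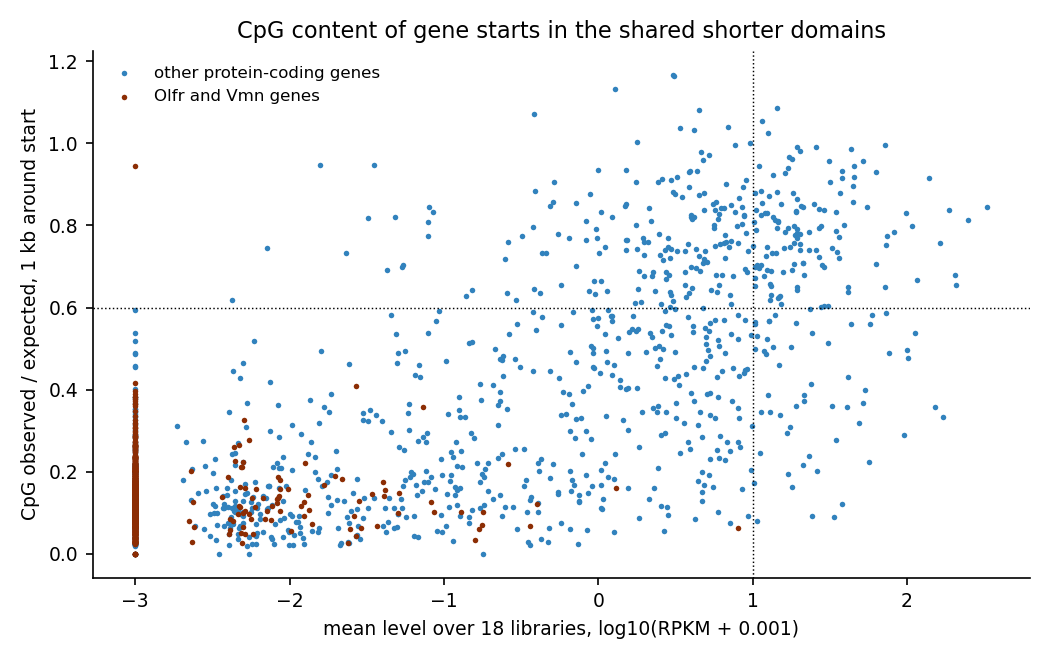
Each point is 1 protein-coding gene with its start in the shared shorter domains, with the mean level over 18 libraries on a log10 axis (0.001 RPKM added) and the ratio of observed to expected CpG in the 1 kb around its start. Dotted lines mark 10 RPKM and a ratio of 0.6. Of the genes at 10 RPKM or more, 66.3% were CpG-island-like, against 1.68% of those under 0.5 RPKM.

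The shared shorter domains held 2385 protein-coding gene starts, 5.04 per Mb. This lay between the 2.53 per Mb of shared sequence in WT domains of 15 Mb or more and the 12.1 per Mb of sequence in no domain. Their GC content was 38.4%, against 38.2% in the longer shared domains and 44.1% outside domains, and CpG occurred 5.61 times per kb against 10.2 outside domains. Of the member bins, 77.7% held no annotated gene start of any kind. Pseudogenes made up 17.9% of the 4210 annotated gene starts in them, against 10.1% outside domains.

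The higher density relative to the longer domains came with a few clustered families. Olfactory receptor (Olfr), vomeronasal receptor (Vmn) and numbered zinc finger genes (Zfp, Zkscan, Zscan) made up 1010 of the 2385 protein-coding starts (42.4%), against 8.45% in the longer shared domains and 3.53% outside domains. Zinc finger genes were the smallest part and were not concentrated here. Of 387 on the autosomes 51 (13.2%) started in these bins, which hold 19.8% of the sequenced autosomes. The longer shared domains had 0 of them and 304 started in no domain. Without these families the shared shorter domains had 2.91 protein-coding starts per Mb, the longer ones 2.32 and the sequence outside domains 11.7. The plot of gene density by class shows the receptor genes as the part that sets the shorter domains apart from the longer ones.

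**Figure D2:**
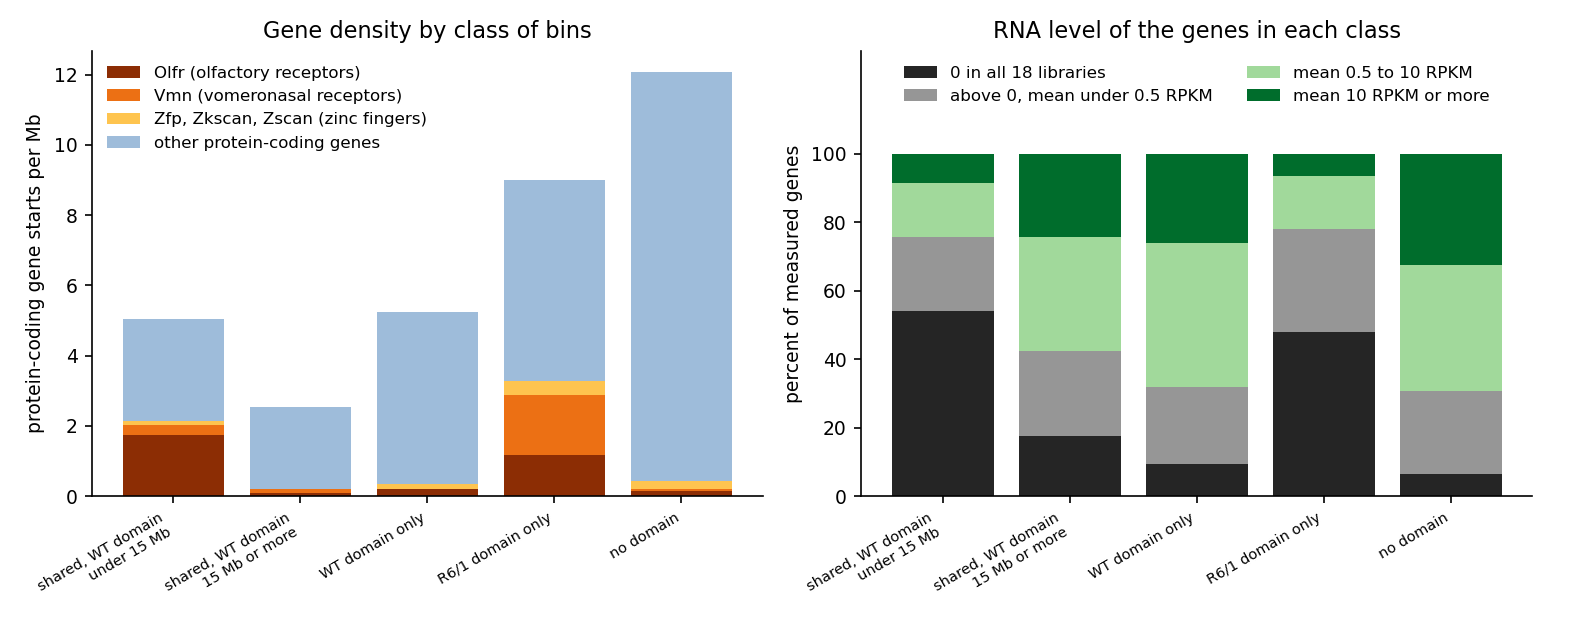
Left: protein-coding gene starts per Mb of sequenced bases in 5 classes of autosomal bins, split by gene family. Right: the percent of measured genes of each class at 0 in all 18 RNA libraries, above 0 with a mean under 0.5 RPKM, between 0.5 and 10 RPKM, and at 10 RPKM or more. The shared shorter domains had 5.04 starts per Mb and 53.9% of their measured genes at 0.

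Olfactory receptors are odorant receptors of the nasal epithelium, and 823 of the 1106 autosomal Olfr genes (74.4%) started in the shared shorter domains, in 16 of them, with 25 in the longer shared domains and 199 in no domain. Of the 803 measured in RNA, 748 were at 0 in all 18 libraries and 801 had a mean under 0.5 RPKM; a count of 0 in a library allows up to 3 reads, for counting error only. The 2 above that level were Olfr1055 on chromosome 2 (86186881 to 86187921), at 1.40 ± 0.356 RPKM over the WT libraries against 1.20 ± 0.324 over the R6/1 libraries (SD over 9 libraries each, as for every ± below; limma adjusted p = 0.320), and Olfr613. Olfr613 lies on chromosome 7 (110698882 to 110704018), and its WT libraries averaged 8.28 ± 1.38 RPKM and its R6/1 libraries averaged 7.77 ± 1.34 RPKM, a difference that did not pass the test (limma adjusted p = 0.470). Vomeronasal receptors, which detect pheromones, had 136 of 327 genes (41.6%) in these bins, and 135 of the 135 measured were under 0.5 RPKM.

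Several smaller clusters lay mostly in the shared shorter domains. All 11 Skint genes, which act in the selection of skin T cells, started there, as did 8 of 9 Akr1c aldo-keto reductases of steroid metabolism, 23 of 26 genes of the prolactin family and 22 of 27 formyl peptide and Mas-related receptors. Of other families a smaller majority did: 22 of 38 UDP glucuronosyltransferases and sulfotransferases, 30 of 53 taste and trace amine receptors and 15 of 28 pregnancy-specific and Ceacam genes. Of the 23 measured prolactin family genes 21 were at 0 in every library. Families used in every cell were rarely present, with 2 of 92 respiratory chain genes and 1 of 51 proteasome genes, and so were homeobox genes of development, with 1 of 88. Keratin genes (0 of 100), kallikreins (0 of 28) and major urinary proteins and lipocalins (0 of 33) are clustered too, and none started there. Over all autosomes 2 of 98 measured keratin genes reached 10 RPKM, and no measured kallikrein, major urinary protein or lipocalin gene did.

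The domains differed widely from each other. Among 134 autosomal WT domains 117 were under 15 Mb, and 110 of these held shared bins, with a median domain length of 4.03 Mb and a median of 95.7% of the domain shared with R6/1 (lowest 27.5%). Protein-coding density ran from 0 to 52.6 starts per Mb with a median of 2.51, while the 17 longer domains ran from 0.607 to 5.28 with a median of 2.46. The densest was on chromosome 7 (109742001 to 112517000), with 140 protein-coding starts of which 114 were Olfr genes, followed by domains on chromosome 10 (128390001 to 129993255, 63 starts, 56 Olfr) and chromosome 9 (37518001 to 39997000, 99 starts, 94 Olfr). At the other end 4 domains held no protein-coding start, the 3 with the most shared sequence lying on chromosome 2 (7474001 to 9435000), chromosome 7 (83213001 to 85359000) and chromosome 10 (122766001 to 125948000). The 3 WT domains just under the limit of 15 Mb were 13.1, 13.9 and 14.1 Mb long with 3.98, 1.54 and 2.43 starts per Mb, and the 3 just over it were 16.3, 16.3 and 17.2 Mb long with 1.33, 1.47 and 1.62. By chromosome, shared shorter domains covered from 0% of chromosome 16 to 33.9% of chromosome 3, and their density ran from 0.527 starts per Mb on chromosome 15 to 11.4 on chromosome 2.

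The shortest domains had the highest gene density and the fewest expressed genes per Mb. In WT domains under 3 Mb the shared sequence had 10.8 protein-coding starts per Mb (3.89 without the 3 families) and 0.222 genes at 10 RPKM or more per Mb. In domains of 10 to 15 Mb it had 4.73 starts per Mb (2.56 without the families) and 0.562 expressed genes per Mb, against 0.601 in the domains of 15 Mb or more. Density was not ordered throughout, at 4.17 starts per Mb for domains of 3 to 6 Mb and 3.67 for those of 6 to 10 Mb, while expressed genes per Mb rose from class to class. Within the shared stretches, bins at least 999 kb from either end held 0.550 expressed genes per Mb and bins from 185 kb up to 518 kb from an end 0.154, while the outermost bins held 0.349, from 3 genes (Mrgpra6, Gabra4 and Pdcl). Distance from an end and domain length were not separated, since bins far from an end exist only in long stretches.

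**Figure D3:**
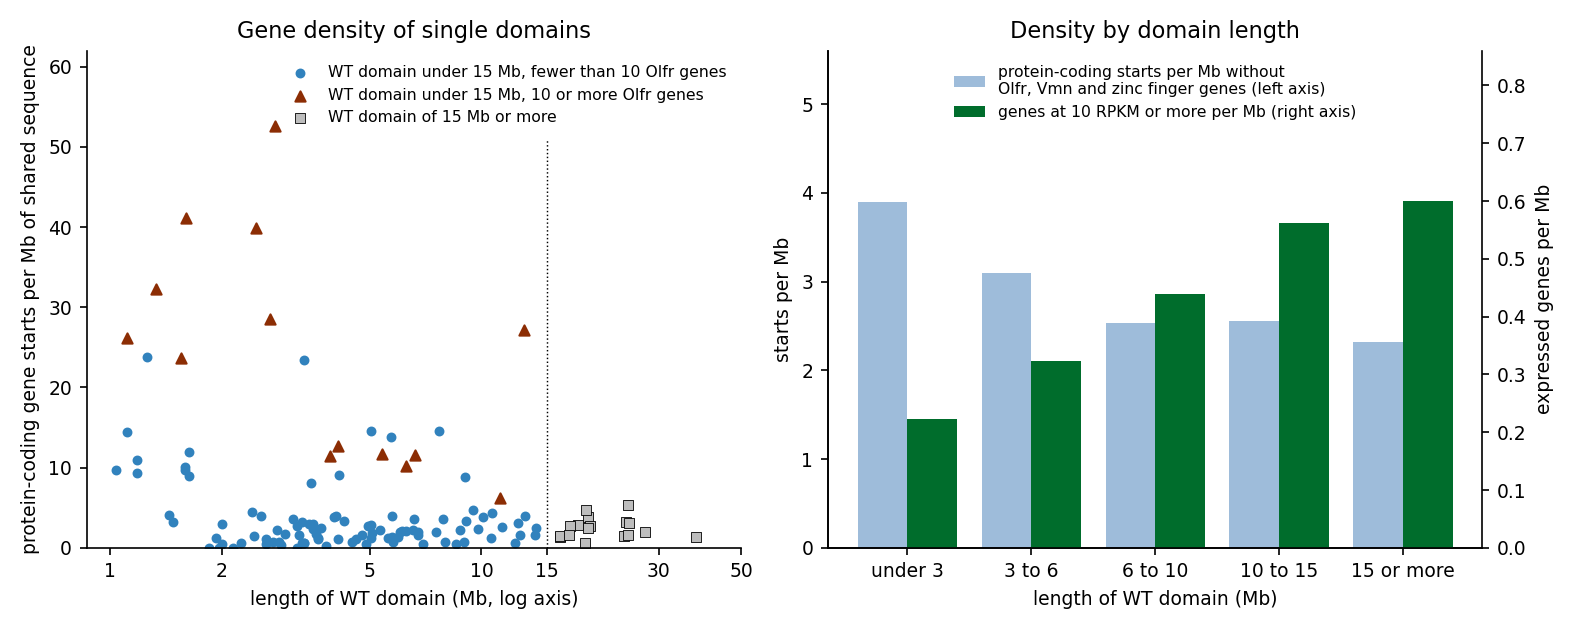
Left: protein-coding starts per Mb of shared sequence against the length of the WT domain (log axis), 1 point per domain, with triangles for domains under 15 Mb that hold 10 or more Olfr genes and squares for domains of 15 Mb or more; the dotted line marks 15 Mb. Right: by domain length, protein-coding starts per Mb without the receptor and zinc finger families (left axis) and genes at 10 RPKM or more per Mb (right axis). The former ran from 3.89 to 2.32 and the latter from 0.222 to 0.601 from the shortest to the longest class.

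RNA was measured for 2241 genes with their start in the shared shorter domains. Of these, 1209 (53.9%) were at 0 in all 18 libraries, 1695 (75.6%) had a mean under 0.5 RPKM, 356 lay between 0.5 and 10 RPKM and 190 (8.48%) reached 10 RPKM. Outside domains 32.4% of measured genes reached 10 RPKM and in the longer shared domains 24.5%. The 190 expressed genes were 187 protein-coding genes and 3 pseudogenes, 0.402 per Mb against 3.92 per Mb outside domains, and 154 of them were at 10 RPKM or more in every library. Their share of all reads was 2.32% ± 0.06 over the WT libraries and 2.31% ± 0.04 over the R6/1 libraries. Just inside the threshold were 4632415L05Rik (10.1 RPKM), Hook1 (10.1) and Cdh9 (10.2), and just outside it Dio2 (9.85), Flrt2 (9.81) and Olfml1 (9.73).

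Expressed genes stood apart from one another. The median distance from the start of an expressed gene to the nearest other expressed start was 382 kb, against 50.8 kb outside domains, and 47 of the 190 (24.7%) had none within 1 Mb, against 1.15% outside. They were long, as in other domain sequence. The protein-coding ones had a median length of 33.1 kb and 27.8% spanned over 100 kb, against 24.4 kb and 13.3% outside domains. In the longer shared domains these values were 40.4 kb and 26.5%, and in sequence that only the WT list covers 49.4 kb and 34.8%. With starts at most 250 kb apart counted as a run, the 190 genes fell into 143 runs, of which 116 were 1 gene. The longest run was 10 genes on chromosome 2 (84440228 to 84913205: Ctnnd1, Selenoh, Med19, Tmx2, Zdhhc5, Ypel4, Timm10, Rtn4rl2, Ssrp1 and Tnks1bp1), inside the WT domain that also held 217 Olfr genes and, with 13, the most expressed genes. Next was a run of 5 on chromosome 7, among them Zbtb45, Trim28, Chmp2a and Ube2m. Only 15 of the 938 measured Olfr and Vmn genes had an expressed gene starting within 100 kb. In the 17 domains with 10 or more Olfr or Vmn genes, 38 of the 289 other measured genes (13.1%) were expressed, against 15.2% in the other 93 domains.

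The highest levels belonged to genes of signalling and the neuronal cytoskeleton, among others. Ppp3r1 averaged 330 RPKM over the 18 libraries, Ppp2r1a (the scaffold subunit of the phosphatase PP2A) 248, Zwint (a kinetochore protein) 208, Vsnl1 (the neuronal calcium sensor visinin-like 1) 205, Stmn2 (a neuronal regulator of microtubules) 171 and Nrsn1 153. Gja1, the astrocyte gap junction protein connexin 43, averaged 99.3 RPKM and Car2, a carbonic anhydrase of oligodendrocytes, 98.9. The top of the list was the pseudogene Gm12070 at 385 RPKM, whose sequence matched 21 other places of the genome at 95% identity or more over at least 50% of its length, so its reads cannot be assigned with certainty. The same holds for Tmx2, Fabp5, Rwdd1, Etv1, 1810022K09Rik and Tom1, with 1 such place each. Mrgpra6, a Mas-related receptor gene that starts in the end bin of its stretch, averaged 94.9 RPKM, while the other 20 measured formyl peptide and Mas-related receptor genes of these bins stayed under 0.5 RPKM. Of the expressed genes 60 overlap an annotated gene of the other strand, among them Gabra5, Grm5, Grm7, Scn1a, Ano3, Emb, Tspyl4, Cdh8, Cntnap2, Cadm3, Tmx2, Med19, Zdhhc5 and Ssrp1. The sources used here do not say if strand was used in counting, so reads of such pairs cannot be told apart.

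Of the neuronal families listed, the receptors of GABA, the main inhibitory transmitter of the brain, had the highest share of members here. Of 16 autosomal GABA-A receptor subunit genes 10 started in the shared shorter domains, in 3 of them, and 7 of these were expressed, of 9 expressed in all. On chromosome 11 lay Gabrb2 (42233259 to 42446092) and the silent Gabra6 (0.126 RPKM). On chromosome 7 lay Gabra5 (64663060 to 64765379) and Gabrg3 (2.75 RPKM). On chromosome 5 lay Gabra2 (71352296 to 71487088), Gabra4 (71960973 to 72049547) and Gabrg1 (7.33 RPKM), and the next gene of that cluster, Gabrb1 (15.8 RPKM), started in sequence that only the WT list covers.

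Gene expression was compared between genotypes with limma on log2(RPKM + 0.5), a scale that understates the change of low genes, over the 14446 genes whose mean reached 0.5 RPKM, and all adjusted p-values below are from limma with Benjamini-Hochberg adjustment over these. Of all tested genes 48.3% had an adjusted p under 0.05. Of the 2241 measured member genes 546 passed the filter, and 129 of them were higher and 141 lower in R6/1, a share of 49.5%. The median log2 fold change of these 546 was -0.01, against 0.00 over all tested genes. Among the 190 expressed genes 53 were higher and 64 lower, 61.6% against 57.5% of all tested genes at 10 RPKM or more. By direction these are 27.9% higher and 33.7% lower, against 31.3% and 26.2% of all genes at that level, and the medians were -0.02 and 0.02. Some of the 190 genes reached 10 RPKM through 1 genotype only. Most changes were small, as 101 of the 117 had an absolute log2 fold change under 0.5 and 3 reached 1. In 33 of the 190 (17.4%), 11 higher and 22 lower, the 9 libraries of one genotype lay beyond all 9 of the other, against 16.9% of all tested genes at that level and 11.9% of all tested genes. When libraries were scaled to their own totals of reads, a setting chosen after the data were seen, 69 were higher and 52 lower. Which direction prevailed thus changed with the scaling, and the median over all tested genes moved to 0.07. Of the calls among the 190 genes 57.0% were then higher, against 66.9% of calls among all tested genes. Without this scaling the shares were 45.3% and 51.4%, so the members lay below all tested genes in both settings. The shares over all tested genes cover every level, though, while the 190 genes were chosen by level. The share at 10 RPKM or more was not counted under scaling to own totals. By the authors' deposited values, 119 of the 190 genes had an adjusted p under 0.05. Of all genes with such a value, at any level, 40.4% did. That share is no match for the 190 genes, which were chosen by level. In the limma test 57.5% of genes at 10 RPKM or more were called, against 48.3% of all tested genes. The share at that level was not counted for the deposited values.

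Among the expressed GABA-A receptor genes 4 of 7 fell and 0 rose. Of all tested genes at 10 RPKM or more 57.5% were called, 26.2% lower and 31.3% higher. Gabra5, the alpha 5 subunit of extrasynaptic receptors in hippocampal pyramidal neurons, ranged from 64.4 to 86.3 RPKM in WT (median 70.1) and from 35.2 to 41.2 RPKM in R6/1 (median 38.9). All R6/1 libraries lay below all WT libraries, and the log2 fold change was -0.91 (SE 0.053, adjusted p = 5.48e-11). Gabra4 fell from 34.7 ± 5.30 to 27.2 ± 1.93 RPKM (log2 fold change -0.34, adjusted p = 0.000356), with WT libraries from 30.7 and R6/1 libraries up to 29.2. Gabrb2 differed less, with 45.9 ± 4.98 RPKM in WT and 40.8 ± 3.61 in R6/1 (log2 fold change -0.17, adjusted p = 0.0326), and lost its call when WT replicate 4, 6, 7 or 8 or R6/1 replicate 1, 2, 6 or 8 was left out (adjusted p from 0.0528 to 0.0657) and under quantile normalization (0.0857) and scaling to own totals (0.207). Gabra2 varied most between libraries, from 24.3 to 65.6 RPKM in WT (median 44.9) and from 11.5 to 54.5 in R6/1 (median 33.2), and did not pass (log2 fold change -0.48, adjusted p = 0.0871), though it did without WT replicate 3, R6/1 replicate 4 or R6/1 replicate 6, at an adjusted p of 0.0309, 0.0434 and 0.0460. Under quantile normalization and scaling to own totals Gabrg3, which did not pass here, was higher (adjusted p = 0.0277 and 0.0116), as it was without WT replicate 3 or 6 or R6/1 replicate 2; with Gabrb2 lost, the counts over the 9 tested subunit genes under these scalings were 1 higher and 3 lower.

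**Figure D4:**
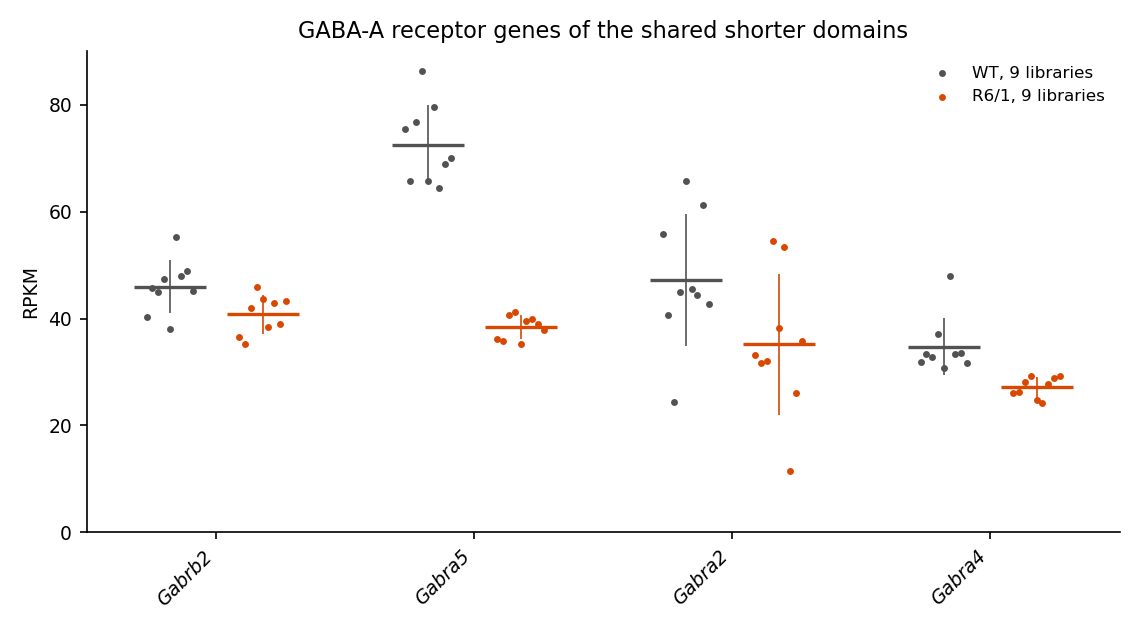
RPKM of 4 expressed GABA-A receptor genes of the shared shorter domains (Gabrb2, Gabra5, Gabra2 and Gabra4) in 9 WT and 9 R6/1 libraries, with the mean as a horizontal line and the SD as a vertical line. Gabra5 and Gabra4 did not overlap between genotypes, and Gabra2 spread from 11.5 to 65.6 RPKM.

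Markers of neurons moved with these genes. The 3 pan-neuronal markers (Snap25, Rbfox3 and Camk2a) were all lower in R6/1 and summed to 1928 to 2298 RPKM in WT libraries against 1177 to 1356 in R6/1 libraries. Lower too were 3 of 3 CA1 markers (133 to 188 against 95.6 to 107 RPKM summed), 3 of 3 CA3 markers (46.0 to 90.9 against 29.4 to 40.05), 3 of 3 dentate granule markers (28.8 to 58.4 against 14.1 to 20.1) and 2 of 3 markers of inhibitory neurons (134 to 163 against 115 to 145), and 0 were at 0. Their part in the results of single genes was not tested, and in RNA of whole hippocampus fewer cells of a type and less RNA per cell cannot be told apart. The 3 liver markers summed to at most 1.26 RPKM. The choroid plexus markers, from the epithelium that lines the ventricles beside the hippocampus, ranged from 25.5 to 1075 RPKM in WT and from 38.9 to 1742 in R6/1, and none of the 6 passed the test.

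Of the 5 glutamate receptor genes in the shared shorter domains, all expressed, 3 fell and 0 rose, where 57.5% of all tested genes at that level were called. Grm5, a metabotropic receptor of the postsynapse, fell from 41.3 ± 2.89 to 34.2 ± 2.81 RPKM (log2 fold change -0.27, adjusted p = 0.000155). Grik2, a kainate receptor subunit, fell from 14.8 ± 0.891 to 11.2 ± 0.684 RPKM (log2 fold change -0.38, adjusted p = 3.96e-07). Grm3, a metabotropic receptor of astrocytes and presynaptic terminals, fell from 16.4 ± 1.92 to 8.91 ± 2.09 RPKM (log2 fold change -0.86, adjusted p = 1.66e-06), and Grik2 and Grm3 did not overlap between genotypes. Grm3 reached the level of 10 RPKM only through WT. Grm7 (12.8 ± 0.90 in WT, 11.97 ± 0.931 in R6/1) and Gria4 (12.1 ± 1.10 and 11.4 ± 0.834) did not pass. Outside domains 9 of 15 tested glutamate receptor genes were lower and 1 higher.

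Sodium channel genes of the shared shorter domains showed the opposite sign. Where 24.8% of all tested genes were higher and 23.5% lower, the 3 sodium channel genes tested there, all in 1 domain on chromosome 2, were higher in R6/1. Of these Scn1a was expressed, from 16.7 to 22.5 RPKM in WT (median 17.9) and from 20.3 to 28.9 in R6/1 (median 24.3), a log2 fold change of 0.38 (SE 0.066, adjusted p = 9.85e-05). Scn9a rose from 0.846 ± 0.0818 to 1.61 ± 0.220 RPKM (log2 fold change 0.64) and Scn7a from 0.579 ± 0.240 to 1.49 ± 0.236 (log2 fold change 0.91), both low. Outside domains 6 of 6 tested sodium channel genes were lower, and both counts were the same under median centring, quantile normalization and scaling to own totals. A further 2 sodium channel genes started in sequence that only the WT list covers and are in neither count. The difference between the member genes and those outside domains was not tested.

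Numbered zinc finger genes, which encode DNA-binding repressors for the most part, were the member family with the most tested genes and the most rises. Of 39 tested, 17 were higher and 2 lower, where 24.8% of all tested genes were higher and 23.5% lower. The median log2 fold change of the 39 was 0.13 (lowest -0.39, highest 0.49). The highest was that of Zfp54, which at 0.453 RPKM in WT and 0.845 in R6/1 passed the filter only through R6/1. Under the other scalings between 17 and 21 were higher and 2 lower, and by the authors' deposited values 15 were higher and 2 lower. Of 282 tested zinc finger genes outside domains 76 were higher and 26 lower, with a median of 0.05, and the median over all tested genes was 0.00. They were low in these bins, as 1 of 48 measured reached 10 RPKM, Zfp788, and it did so only through R6/1. Zfp788 rose from 9.52 ± 0.902 to 11.1 ± 0.929 RPKM (log2 fold change 0.21, adjusted p = 0.00498), Zfp317 from 8.47 ± 0.432 to 10.2 ± 0.501 (log2 fold change 0.25, adjusted p = 1.78e-05) and Zfp946 from 4.35 ± 0.613 to 5.595 ± 0.743 (log2 fold change 0.33, adjusted p = 0.00252). Zfp804a, a gene of neurons, fell from 6.89 ± 0.915 to 5.14 ± 0.630 RPKM (log2 fold change -0.39, adjusted p = 0.000379). Many clustered zinc finger genes resemble each other closely, and how the counting treated reads shared by them is not given in the sources used here.

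Adhesion molecules moved both ways, as did all tested genes, of which 24.8% were higher and 23.5% lower. Of 6 tested classical cadherins Cdh9 fell from 13.5 ± 2.08 to 6.92 ± 0.860 RPKM (log2 fold change -0.91, adjusted p = 4.78e-08), Cdh8 fell from 14.3 ± 1.97 to 12.4 ± 1.03 RPKM (log2 fold change -0.19, adjusted p = 0.0285) and Cdh10 rose from 12.3 ± 1.06 to 14.7 ± 1.08 RPKM (log2 fold change 0.24, adjusted p = 0.000749). Cdh9 is a cadherin of dentate and CA3 synapses, and it reached the level of 10 RPKM only through WT. The markers of those cells fell as given above, as did CA1 and pan-neuronal markers, and their part in the fall of Cdh9 was not tested. Of 7 tested contactins and contactin-associated proteins 2 rose and 3 fell, among them Cntnap2 (16.1 ± 1.84 in WT, 13.5 ± 1.09 in R6/1, log2 fold change -0.25, adjusted p = 0.00271). Pcdh10 did not pass, with a log2 fold change of 0.02.

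The largest falls among expressed genes were those of Ano3, Ackr1, Rasd2, Cdh9 and Gabra5, and none of these overlapped between genotypes. Of these Cdh9 averaged under 10 RPKM in R6/1, so it counts as expressed only through WT. Ano3, a calcium-dependent membrane protein of the anoctamin family (chromosome 2, 110495358 to 110791080), ranged from 29.5 to 41.1 RPKM in WT (median 34.0) and from 12.9 to 16.5 in R6/1 (median 13.6), a log2 fold change of -1.23 (SE 0.060, adjusted p = 6.12e-12). Ackr1, a chemokine-binding receptor of vessel walls, ranged from 18.1 to 33.5 RPKM in WT (median 21.9) and from 6.92 to 14.7 in R6/1 (median 10.3), a log2 fold change of -1.14 (SE 0.14, adjusted p = 2.20e-06). The 3 endothelial markers (27.5 to 52.7 RPKM summed in WT, 27.7 to 49.6 in R6/1) did not pass the test. Rasd2, a small GTPase of striatum and hippocampus also known as Rhes (chromosome 8, 77737843 to 77748012), ranged from 22.3 to 30.7 RPKM in WT (median 25.0) and from 9.59 to 13.2 in R6/1 (median 12.4), a log2 fold change of -1.09 (SE 0.073, adjusted p = 4.01e-10).

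Gja1 fell from 121 ± 11.7 to 78.2 ± 8.0 RPKM (log2 fold change -0.62, adjusted p = 1.44e-07), Car2 from 123 ± 12.6 to 74.3 ± 18.97 RPKM (log2 fold change -0.76, adjusted p = 1.17e-05) and Ugt8a, an enzyme of myelin lipid synthesis, from 20.6 ± 2.53 to 12.02 ± 3.87 RPKM (log2 fold change -0.80, adjusted p = 7.44e-05). The 3 oligodendrocyte markers were all lower, summing to 747 to 970 RPKM over WT libraries against 410 to 758 over R6/1 libraries, and so were the 3 astrocyte markers (317 to 416 against 234 to 328), of which Gja1 is one; their part was not tested. Of the 3 microglia markers 2 were lower (54.6 to 71.4 against 39.6 to 70.7).

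The largest rises were those of Ndn, Emb, Marcks, Scn1a and Zwint. Ndn, an imprinted gene for the growth suppressor necdin, expressed from the paternal copy (chromosome 7, 69493163 to 69494814), ranged from 55.1 to 141 RPKM in WT (median 64.9) and from 119 to 166 in R6/1 (median 141), a log2 fold change of 0.72 (SE 0.18, adjusted p = 0.00245). In WT 5 libraries lay between 55.1 and 64.9 RPKM and 4 between 119 and 141, and the latter overlapped the R6/1 libraries. Emb, an immunoglobulin-family partner of monocarboxylate transporters, rose from 9.37 ± 1.12 to 13.4 ± 1.69 RPKM (log2 fold change 0.50, adjusted p = 1.56e-05) with no overlap. Its WT mean lay under 10 RPKM, so it counts as expressed only through R6/1. Marcks, a substrate of protein kinase C at the membrane, rose from 38.9 ± 3.78 to 51.2 ± 3.69 RPKM (log2 fold change 0.39, adjusted p = 7.64e-06), and its lowest R6/1 library, at 42.5 RPKM, lay within the WT range. Zwint rose from 182 ± 15.5 to 234 ± 11.1 RPKM (log2 fold change 0.37, adjusted p = 2.29e-06).

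**Figure D5:**
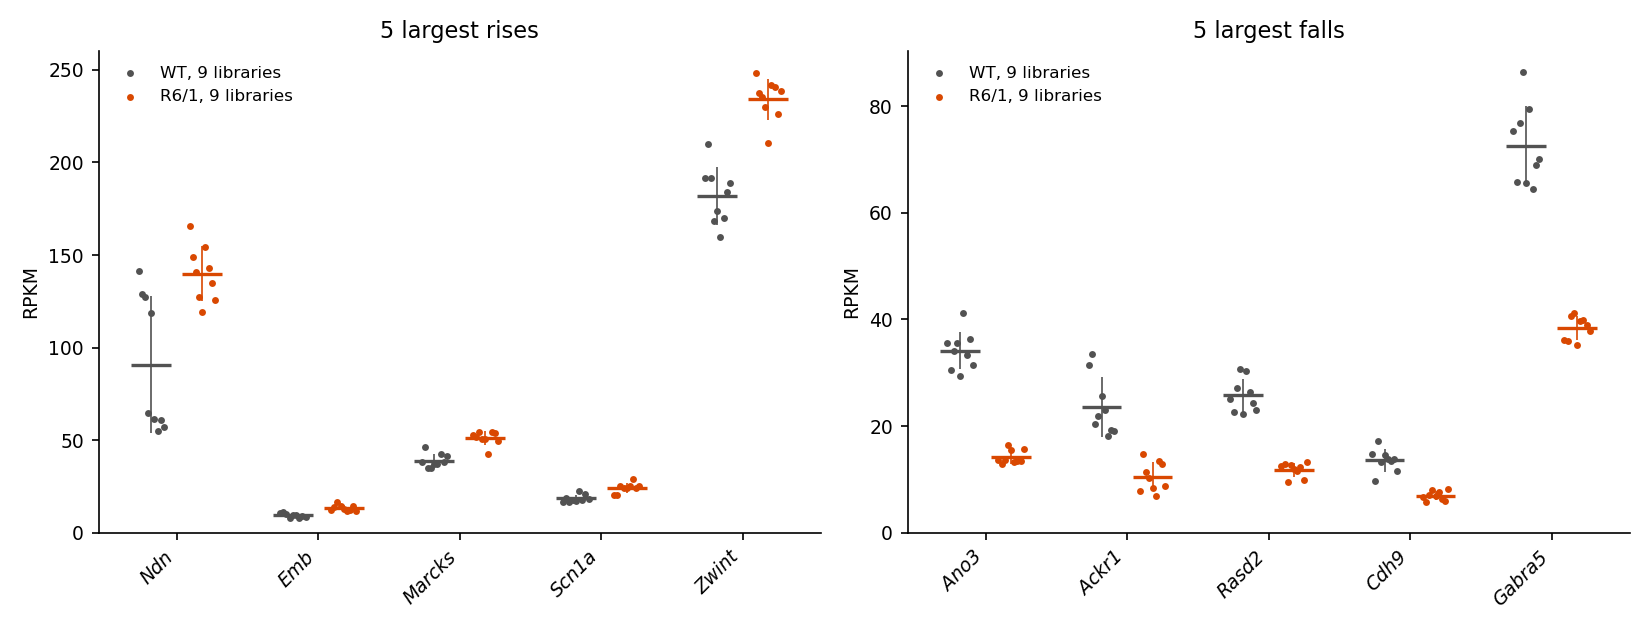
RPKM in each of 9 WT and 9 R6/1 libraries for the 5 largest rises (left) and the 5 largest falls (right) among genes at 10 RPKM or more in the shared shorter domains, with the mean as a horizontal line and the SD as a vertical line. The WT libraries of Ndn form an upper set of 4 and a lower set of 5, and the genes at right do not overlap between genotypes.

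The most abundant genes changed in both directions. Ppp3r1 ranged from 307 to 456 RPKM in WT (median 393) and from 248 to 308 in R6/1 (median 268), with 1 pair of extreme libraries overlapping, and fell by 0.51 on the log2 scale (SE 0.064, adjusted p = 2.17e-06). Vsnl1 fell from 235 ± 33.6 to 174 ± 9.15 RPKM (adjusted p = 2.18e-05), Nrsn1 from 182 ± 18.2 to 124 ± 9.98 RPKM (adjusted p = 2.66e-07) and Tspan13 from 121 ± 8.60 to 94.4 ± 3.54 RPKM (adjusted p = 4.90e-07), all 3 without overlap. Ppp2r1a (234 ± 18.7 to 262 ± 15.5 RPKM, adjusted p = 0.00742), Stmn2 (163 ± 11.9 to 179 ± 3.71 RPKM, adjusted p = 0.00645) and Tspyl4 (149 ± 12.5 to 177 ± 7.62 RPKM, adjusted p = 7.88e-05) rose, with libraries that overlapped. Ghitm, Cadm3, Tmx2, Mrgpra6, Tspyl1 and Fam171b did not pass. Of these Cadm3, Tmx2 and Tspyl1 were called higher under quantile normalization (adjusted p = 0.0115, 0.00286 and 0.0408) and scaling to own totals (0.0190, 0.00590 and 0.0336).

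Neighbours inside a domain did not move as a block in the longest run. In the run of 10 on chromosome 2, Med19 (log2 fold change 0.32), Zdhhc5 (0.28) and Ssrp1 (0.17) rose, Timm10 (-0.19), Rtn4rl2 (-0.31) and Tnks1bp1 (-0.21) fell, and 4 did not pass. In the run of 5 on chromosome 7, Zbtb45 (0.34), Trim28 (0.24) and Chmp2a (0.14) rose, and Ube2m (0.14) did not pass (adjusted p = 0.0566). Ube2m was called higher with the replicate number as a block (adjusted p = 0.0441), under quantile normalization (0.00613) and scaling to own totals (0.00362), and without WT replicate 2 or R6/1 replicate 3, 6 or 9 (0.0204 to 0.0425). The differences between neighbours were not tested.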

How the data were processed

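Hippocampal RNA-seq (9 WT and 9 R6/1 libraries) and lamin B1 domains (1 list per genotype, from the EDD caller per the file names) were used, and ATAC-seq was not analysed here. Reads were aligned to mm9 (NCBIM37) with Bowtie for ChIP-seq and TopHat for RNA-seq, per the submitters' processing notes, where the authors name DESeq2 and no versions are given. The authors deposited RPKM for 24508 symbols, scaled by size factors, and a table with mean normalized signal, log2 fold change, test score, p-value and adjusted p-value. Each domain carries a score in the deposited lists, used only to rank domains. Whole reads were recovered from the deposited RPKM for between 99.84% and 99.89% of values (within 0.05 of a read), giving between 12299433 and 16457026 reads in WT and between 13260311 and 16736544 in R6/1. 

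Symbols were matched to GENCODE vM1 genes by name (20512) or RefSeq synonym of GRCm38.p6 (1755), together 90.9%. A bin was inside a domain when whole within it, and per-Mb values use sequenced bases. Genes were tested with limma 3.58.1 (lmFit, eBayes with trend, two-sided, R 4.3.3) on log2(RPKM + 0.5) at a mean of at least 0.5 RPKM, with Benjamini-Hochberg adjustment at 0.05. On simulated data for this comparison over 14446 genes the test recovered 76% of changes of 0.3 (log2), 88% of 0.6, 96% of 1 and 100% of 2. The grid was tested on made intervals. Near-identical sequence elsewhere in the genome was sought with minimap2 2.31 (95% identity over 50% of the longest transcript). Named genes are the 20 highest members, the 5 largest rises and falls among called genes at 10 RPKM or more, the highest of each family list and the 3 on each side of 10 RPKM, and named domains the 3 at each end of density, the 3 with most expressed genes and the 3 on each side of 15 Mb; others named were chosen after their values were seen, and some genes that the rule names are not reported here. Members and lists were chosen with earlier results of these data known. Alternatives tried were other length limits, placements, thresholds, pseudocounts, filters, scalings, the replicate number as a block, the deposited p-values and leaving out each library.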

Additional observations from a re-analysis of the deposited data

Results flagged for a closer look

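For 11 of the 142 sets of 9 libraries looked at (71 genes in each genotype; 7.75%, where chance flags about 1 in 20), 1 library lay far from the others relative to the range. In WT replicate 2 Vsnl1 stood at 313 RPKM (next library 250), Tspyl4 at 178 RPKM (next 157) and Psma2, a proteasome subunit gene, at 77 RPKM (next 69.4), all above the other WT libraries. Gabra4 stood at 48 RPKM in WT replicate 6 (next 37.1) and Sema3e, a guidance factor gene, at 18.1 RPKM in WT replicate 1 (next 14.5). In R6/1, Gm12070 reached 459 RPKM in replicate 1 (next 425) and Car2 117 RPKM in replicate 5 (next 83.4). Lowest of their groups were Marcks at 42.5 RPKM in R6/1 replicate 6 (next 49.8), Ephb6 at 18 RPKM in replicate 3 (next 20.3), and Med19 at 13.4 RPKM (next 15.5) and Trim28 at 42.4 RPKM (next 47.3), both in replicate 5. The calls of Vsnl1, Tspyl4, Psma2, Gabra4, Sema3e, Gm12070, Car2, Marcks, Med19 and Trim28 held with each library left out in turn, and Ephb6 was not called with any library left out.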

How the results depend on the processing

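Counts depended on thresholds more than on the fit. A length limit of 10 Mb left 125 genes at 10 RPKM or more and 20 Mb gave 279, a level of 20 RPKM left 95, and domains with scores above the median of their list (in both genotypes) left 8057 bins. Density stayed between 4.47 and 5.14 protein-coding starts per Mb over the alternatives tried. Calls among the 190 expressed genes numbered between 110 and 122 over all settings, and 119 in the authors' deposited table, 116 of them called here as well and 0 with the opposite direction. Calls among all tested members numbered between 229 and 293. Leaving out 1 library gave between 110 and 120 and between 252 and 278 calls. The replicate numbers do not pair the libraries (3 of 9 same-numbered pairs correlated above 0.1, lowest -0.05, 2 correlating best with their own number), and with the replicate number as a block 120 and 272 genes were called. Under scaling to own totals, added after the data were seen, all tested members gave 169 higher and 109 lower calls. Of these 60.8% were higher, against 66.9% of calls among all tested genes. Of 71 genes followed through the alternatives, 48 were called and 0 of these reversed; Cacna2d1, Adgrl3, Gabrb2 and Timm10 lost their call in at least 1 setting, Adgrl3 when WT replicate 5 or R6/1 replicate 7 was left out. Each genotype has 1 domain list, so the stability of domain bounds cannot be measured, and genes whose symbols matched no annotated gene are not placed.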

Other observations

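The spread of expressed genes within a genotype was mostly small, with a median coefficient of variation of 8.51% over the 190 genes, and 7 genes exceeded 20%. Gabra2 led at 32.3%, followed by Ndn at 29.8%, 3632451O06Rik at 26.8%, Ackr1 at 24.9%, Ugt8a at 24.4%, Mrgpra6 at 24.2% and Dpp10 at 21.6%.

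Ndn and Snrpn lie in the same cluster of imprinted genes on chromosome 7, inside the shared shorter domains, and the 5 WT libraries with the lowest Ndn levels also had the lowest Snrpn levels. In WT replicates 4, 6, 7, 8 and 9 Ndn lay between 55.1 and 64.9 RPKM and Snrpn between 0.235 and 0.472 RPKM. In WT replicates 1, 2, 3 and 5 Ndn lay between 119 and 141 RPKM and Snrpn between 0.812 and 1.13 RPKM. All 9 R6/1 libraries had Ndn between 119 and 166 RPKM and Snrpn between 0.583 and 1.14 RPKM. These sets were seen in the values and are not groups of the study. Snrpn did not pass the test between genotypes (limma adjusted p = 0.160). Magel2 and Mkrn3, in the same cluster, were low: Magel2 averaged 0.400 ± 0.128 RPKM in WT libraries and 0.750 ± 0.173 in R6/1 libraries, passing the filter of 0.5 RPKM only through R6/1, so no test is given, and Mkrn3, with 0.294 ± 0.0401 and 0.204 ± 0.0476 RPKM, stayed under it.

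All 30 taste and trace amine receptor genes of the shared shorter domains were measured, and 25 of them were at 0 in every library.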
